A study of Homo sapiens with 22 samples.

Results

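SMARCA4 and SMARCC1 peaks of the same cells were set against each other in AN3CA, an established human endometrial carcinoma cell line. SMARCA4 is an ATPase of BAF (SWI/SNF) chromatin remodelling complexes, a motor that moves nucleosomes, and SMARCC1 is a scaffold subunit of the core on which these complexes assemble. Both are shared by several forms of BAF, so a peak of either does not tell which form was present, and ARID1A belongs to the canonical form only. Occupancy was measured by CUT&Tag, in which an antibody brings a transposase to its target and the DNA released there is sequenced. Another antibody, against H3K27ac, marked acetylated chromatin, a feature of active promoters and enhancers.

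The cells expressed 1 of 4 altered forms of ARID1A, the wild-type form (WT), or an empty vector (Empty). The altered forms were a truncation called CBR, DBDmut, mutated in the DNA-binding ARID domain, a truncation called delIDR1, and a hybrid with an intrinsically disordered region, named DDX4. Empty had 2 replicates and every other form had 1 library per antibody. The labels name neither clones nor separate cultures. Differences between single constructs therefore have no replicate check, and p-values measure only the spread between these libraries.

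A pair was the SMARCA4 list and the SMARCC1 list of the same cells, which gave 7 pairs from 14 libraries. Peaks on chromosomes 1 to 22 were kept, and an overlap of 1 bp or more counted as sharing. These were 172232 peaks, of 509800 in the 22 lists of the series on all sequences. The 7 H3K27ac lists of the same cells held another 320830 peaks on these chromosomes. Depth, estimated from the deposited peak statistics, was 0.916 to 1.95 fragments per kb for SMARCA4 and 1.33 to 3.28 for SMARCC1, and the SMARCC1 library was the deeper one in all 7 pairs. Peak names carried 3 stamps whose meaning the labels do not give: 1 for CBR, DBDmut, delIDR1, WT and Empty replicate 1, another for DDX4 and another for Empty replicate 2.

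The first comparison asked how many sites carried both subunits and how many only 1. The CBR pair had 12616 SMARCA4 and 11744 SMARCC1 peaks, and of the SMARCA4 peaks 6022 had SMARCC1 and 6594 did not. In DBDmut there were 14849 SMARCA4 peaks, 9670 with SMARCC1 and 5179 without, beside 18427 SMARCC1 peaks. In delIDR1, 4527 of 7011 SMARCA4 peaks had SMARCC1 and 2484 did not, beside 10273 SMARCC1 peaks. CBR was thus the pair in which SMARCA4 peaks without SMARCC1 outnumbered those with it.

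The DDX4 pair had 8614 SMARCA4 peaks, 4703 with SMARCC1 and 3911 without, and 9489 SMARCC1 peaks. The WT pair had 12720 SMARCA4 peaks, 9585 with SMARCC1 and 3135 without, and 23364 SMARCC1 peaks. Empty replicate 1 had 5453 SMARCA4 peaks, 4101 with SMARCC1 and 1352 without, against 13336 SMARCC1 peaks, and Empty replicate 2 had 9210, 6468 and 2742, against 15126. In these pairs and in DBDmut and delIDR1, the SMARCC1 list was the longer one. The difference, SMARCA4 minus SMARCC1, was -875 peaks in DDX4 and between -10644 and -3262 in the other 5.

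SMARCC1 peaks without SMARCA4 numbered 5751 in CBR, 8869 in DBDmut, 5763 in delIDR1, 4638 in DDX4, 14022 in WT, and 9272 and 8634 in the Empty replicates. For each SMARCC1-only peak there were 1.15 SMARCA4-only peaks in CBR, against 0.146 to 0.843 in the other 6 pairs. DDX4, at 0.843, was the nearest to CBR, and Empty replicate 1 the farthest.

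**Figure D1:**
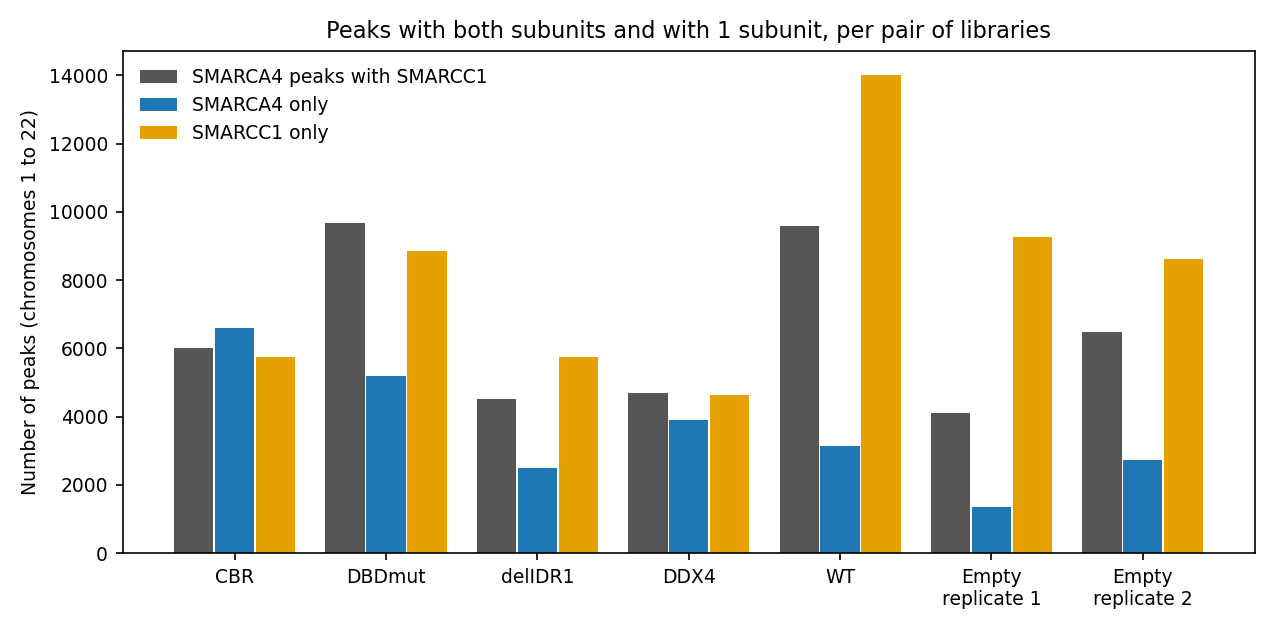
Number of peaks on chromosomes 1 to 22 (vertical axis) per pair of libraries (horizontal axis), as bars for SMARCA4 peaks with SMARCC1, SMARCA4-only peaks and SMARCC1-only peaks. In CBR the SMARCA4-only bar, 6594 peaks, is the highest of its 3, and in WT the SMARCC1-only bar, 14022 peaks, is.

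SMARCA4 lists were shorter than SMARCC1 lists. They averaged 10068 ± 3413 peaks for SMARCA4 and 14537 ± 4938 for SMARCC1 (SD, n = 7 pairs), a mean difference of -4469 with SMARCA4 lower in 6 of 7 pairs. A two-sided exact permutation test that flips the sign of each pair's difference gave p = 0.0312, or 0.0375 after Benjamini-Hochberg adjustment over the 6 tests given here. The smallest p that 7 pairs allow is 0.0156. Depth was also lower for SMARCA4 in every pair, and its part in the difference was not tested. Median peak width averaged 205 bp for SMARCA4 and 211 bp for SMARCC1 and did not pass the test (mean difference -5.64 bp, exact p = 0.734, adjusted p = 0.734). That difference turned to 0.286 bp with peaks of -log10 q of at least 5 and to 7.75 bp without WT. The shortest peak also differed within pairs. It was 158 bp for SMARCA4 and 104 bp for SMARCC1 in DDX4, and 90 and 136 bp in WT. Its part in the median widths was not tested.

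A larger share of SMARCA4 peaks than of SMARCC1 peaks had the other subunit. The share of SMARCA4 peaks with SMARCC1 was 47.7% in CBR (Wilson 95% interval 46.9 to 48.6, which covers counting error only), 65.1% in DBDmut, 64.6% in delIDR1, 54.6% in DDX4, 75.4% in WT, and 75.2% and 70.2% in the Empty replicates. The share of SMARCC1 peaks with SMARCA4 was 51.0% in CBR, 51.9% in DBDmut, 43.9% in delIDR1, 51.1% in DDX4, 39.98% in WT, and 30.5% and 42.9% in the Empty replicates. CBR was lowest for the first share, close to DDX4, but among the 3 highest with DBDmut and DDX4 for the second.

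The mean difference between these shares was 20.2 percentage points (SD 17.1, n = 7), positive in 6 of 7 pairs, with CBR the exception (exact sign-flip permutation p = 0.0312, adjusted p = 0.0375). Shortening all 14 lists to the 5453 strongest peaks brought the means to 60.8% of SMARCA4 and 60.5% of SMARCC1 peaks, a difference of 0.288 points (exact p = 0.328, adjusted p = 0.492). Both results follow from list length: the number of shared peaks was nearly the same counted from either list, so the 2 shares differ as the list lengths do, and this test adds nothing to that of list length.

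Where both subunits were called, they lay close together. The median distance between the summit of a shared SMARCA4 peak and that of its SMARCC1 peak was 31 bp in CBR, 34 bp in DBDmut, 37 bp in delIDR1, 43 bp in DDX4, 37 bp in WT, and 33 and 54 bp in the Empty replicates. Within 100 bp lay 85.5% of them in CBR, the highest share, and 67.4% to 82.2% in the other pairs. Discordant sites were also mostly far from the other subunit: 6.57% of CBR SMARCA4-only peaks lay within 1 kb of a SMARCC1 peak of the same cells, against 7.36% to 13.4% in the other pairs. At the edge of the rule, 139 shared SMARCA4 peaks in CBR overlapped by less than 50 bp and 42 SMARCA4-only peaks missed by a gap under 50 bp.

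The next question was which peaks were discordant. Strong SMARCA4 peaks had SMARCC1 in every pair. Of the 1000 SMARCA4 peaks with the highest -log10 q (the authors' significance per peak, used here only to rank peaks within a list), 96.3% had SMARCC1 in CBR, 97.4% in DBDmut, 94.4% in delIDR1, 93.4% in DDX4, 96.1% in WT, and 92.6% and 96.3% in the Empty replicates. CBR was not low among these. Of the 1000 strongest SMARCC1 peaks, 94.3% had SMARCA4 in CBR, and 78.9% (Empty replicate 1) to 99.0% (DBDmut) in the other pairs.

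The pairs parted further down the list. With each SMARCA4 list cut into 5 equal classes from strongest to weakest, the share with SMARCC1 in CBR was 91.7%, 66.9%, 46.9%, 26.4% and 6.78%. DDX4 had 90.1%, 75.9%, 54.8%, 36.7% and 15.3%, and DBDmut 97.1%, 85.9%, 70.8%, 48.8% and 23.1%. In WT the shares were 95.4%, 89.4%, 76.0%, 66.2% and 49.8%. CBR was below all other pairs in every class but the strongest, where DDX4 was lower. The classes hold different numbers of peaks, since the lists run from 5453 to 14849 peaks.

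At fixed numbers of peaks CBR was not the lowest pair. Of the 2000 strongest SMARCA4 peaks 93.6% had SMARCC1 in CBR, against 97.5% in DBDmut, 90.7% in delIDR1, 89.5% in DDX4, 95.6% in WT, and 92.1% and 96.0% in the Empty replicates. Of the 5000 strongest, 79.4% had it in CBR, against 93.5% in DBDmut, 76.2% in delIDR1, 74.6% in DDX4, 92.6% in WT, and 79.6% and 90.6% in the Empty replicates. CBR stood above DDX4 and delIDR1 in both counts and below DBDmut, WT and Empty replicate 2.

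For SMARCC1 lists the fall was alike in CBR and other pairs. In CBR 87.0% of the strongest and 19.9% of the weakest class of SMARCC1 peaks had SMARCA4. The other 6 pairs ran from 68.0% to 93.4% in the strongest and from 5.70% to 22.1% in the weakest, and CBR lay inside both ranges.

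**Figure D2:**
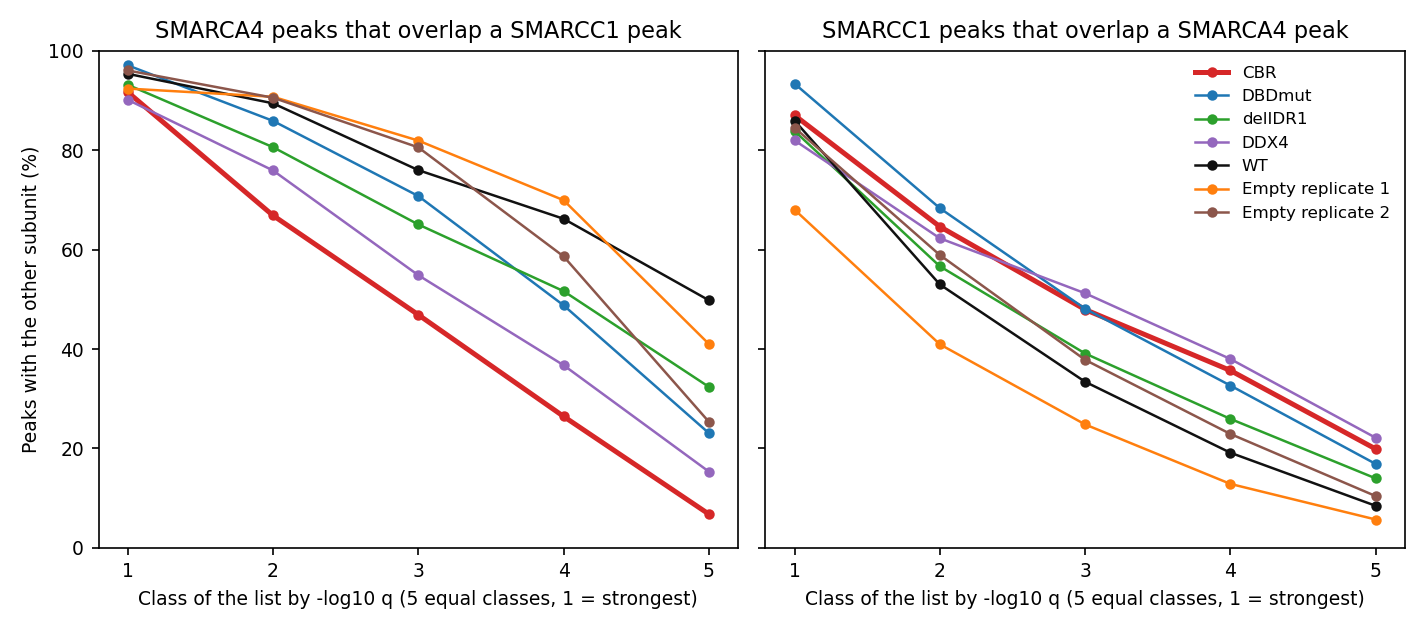
Share of peaks that overlap a peak of the other subunit (vertical axis, percent) by class of the list from strongest to weakest -log10 q (horizontal axis), for SMARCA4 lists on the left and SMARCC1 lists on the right, 1 line per pair. The CBR line drops from 91.7% to 6.78% on the left and is lowest in all but the strongest class, while on the right it lies among the others.

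Discordant SMARCA4 peaks rested on few fragments. The median pileup at the summit, recovered from the authors' fold and p-value, was 12 fragments for CBR SMARCA4 peaks with SMARCC1 and 5 for those without. In the other pairs it was 11 to 18 fragments with SMARCC1 and 5 (DBDmut) to 9 (DDX4) without. At most 5 fragments were piled up at 54.6% of CBR SMARCA4-only peaks and 53.8% of those of DBDmut, against 17.1% to 34.0% in the other pairs. Peaks with SMARCC1 had so few in 5.55% of cases in CBR and 0.417% to 6.09% in the others. CBR and DBDmut, the pairs with the weakest SMARCA4-only peaks, had estimated SMARCA4 depths of 1.19 and 0.916 fragments per kb, against 1.02 in delIDR1, 1.22 in DDX4, 1.53 in WT, and 1.23 and 1.95 in the Empty replicates. The part of depth was not tested.

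CBR had the most SMARCA4 peaks at the lowest local background of their library. This class holds peaks whose recovered background lay within 5% of the library's lowest recurring value. It is taken as a background that signal around the peak did not raise. The peak caller is unknown, so that reading was not checked. Such a peak was found 2437 times in the CBR SMARCA4 list (19.3%). The other SMARCA4 lists held 114 to 1030 such peaks (1.63% to 6.94%). Of the 2437 in CBR, 2351 had no SMARCC1, so these were 35.7% of its SMARCA4-only peaks. In the SMARCC1 list of CBR, 3.04% of peaks were of this class, inside the range of 2.16% to 6.79% in the other pairs.

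Without this class, 58.3% of the remaining CBR SMARCA4 peaks had SMARCC1, against 56.9% in DDX4 and 65.6% (delIDR1) to 77.3% (Empty replicate 1) in the other 5. CBR was then no longer the lowest pair but still below 5 of the 6 others. This setting was chosen after seeing the data. With a -log10 q of at least 5, CBR was at 64.3% and DDX4 at 62.8%, and the other 5 pairs were at 70.7% to 82.5%. With all lists at 5453 peaks, CBR stood at 59.6% and 3 pairs stood below it: delIDR1 at 58.6%, DDX4 at 57.3% and Empty replicate 1 at 55.0%. CBR remained lowest with an overlap of 50% of the shorter peak (46.0%), with summits within 250 bp (47.1%), with gaps of up to 1 kb allowed (51.2%) and with all sequences in the lists (47.7%).

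H3K27ac gave a readout that the pairing did not use. Of all SMARCA4 and SMARCC1 peaks together, 60.1% overlapped an H3K27ac peak of the same cells in CBR, 73.4% in DBDmut, 78.1% in delIDR1, 81.5% in DDX4, 77.9% in WT, 73.7% in Empty replicate 1 and 83.8% in Empty replicate 2. Against this background, SMARCA4 peaks with SMARCC1 were acetylated in 82.2% of cases in CBR, 88.4% in DBDmut, 89.9% in delIDR1, 96.4% in DDX4, 90.4% in WT, and 92.3% and 96.5% in the Empty replicates. SMARCA4-only peaks were acetylated in 32.1% in CBR, 42.3% in DBDmut, 55.3% in delIDR1, 69.7% in DDX4, 47.4% in WT, and 50.5% and 49.3% in the Empty replicates. The ranges of the 2 classes did not overlap, and CBR was lowest in both.

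The H3K27ac lists differed in length, with 40271 peaks in CBR, 38153 in DBDmut, 30991 in delIDR1, 35538 in DDX4, 49682 in WT, and 35429 and 90766 in the Empty replicates. With each cut to its 30991 strongest peaks, SMARCA4 peaks with SMARCC1 were acetylated in 81.5% of cases in CBR and in 85.4% (WT) to 96.3% (DDX4) in the other pairs. SMARCA4-only peaks were acetylated in 31.1% in CBR and in 37.4% (WT) to 68.8% (DDX4) in the others. CBR remained lowest in both classes, and Empty replicate 2, which has the longest H3K27ac list, stood at 94.7% and 41.6%.

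Peaks with both subunits were more often acetylated than peaks with 1. Among SMARCA4 peaks the means were 90.9% ± 4.94 with SMARCC1 and 49.5% ± 11.6 without (SD, n = 7), a difference of 41.4 points that was positive in 7 of 7 pairs. The exact sign-flip permutation test gave p = 0.0156, the smallest possible, and an adjusted p of 0.0375. Within deciles of strength of the same list the difference was 34.9 points, and with all 14 subunit lists at equal length it was 16.3 points, positive in 7 of 7 pairs under both settings (exact test, adjusted p = 0.0375 and 0.0469). In both lists of every pair, peaks with both subunits were also wider than peaks with 1. For SMARCA4 in CBR the medians were 183 and 123 bp. The part of width in acetylation was not tested.

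Among SMARCC1 peaks the same held with a smaller gap. Those with SMARCA4 were acetylated in 82.5% in CBR, 88.6% in DBDmut, 90.0% in delIDR1, 96.3% in DDX4, 90.8% in WT, and 92.8% and 96.6% in the Empty replicates. SMARCC1-only peaks were acetylated in 45.5% in CBR, 58.8% in DBDmut, 69.3% in delIDR1, 60.7% in DDX4, 67.5% in WT, and 60.5% and 75.7% in the Empty replicates. The means were 91.1% ± 4.84 and 62.6% ± 9.61 (SD, n = 7), a difference of 28.5 points that was positive in 7 of 7 pairs (exact p = 0.0156, adjusted p = 0.0375). It was 22.3 points within deciles of strength and 13.3 with lists of equal length.

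SMARCA4-only peaks were acetylated less often than SMARCC1-only peaks in 6 of 7 pairs. The mean difference was -13.0 points (SD 11.1, n = 7; exact sign-flip permutation p = 0.0312, adjusted p = 0.0375). DDX4 was the exception, with 69.7% of SMARCA4-only and 60.7% of SMARCC1-only peaks acetylated. The same exact test lost the call with a -log10 q of at least 5 (-5.61 points, adjusted p = 0.338), with equal lists (-3.10 points, adjusted p = 0.619), and with an overlap of 50% or summits within 250 bp (-11.5 and -10.9 points, both adjusted p = 0.0562).

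**Figure D3:**
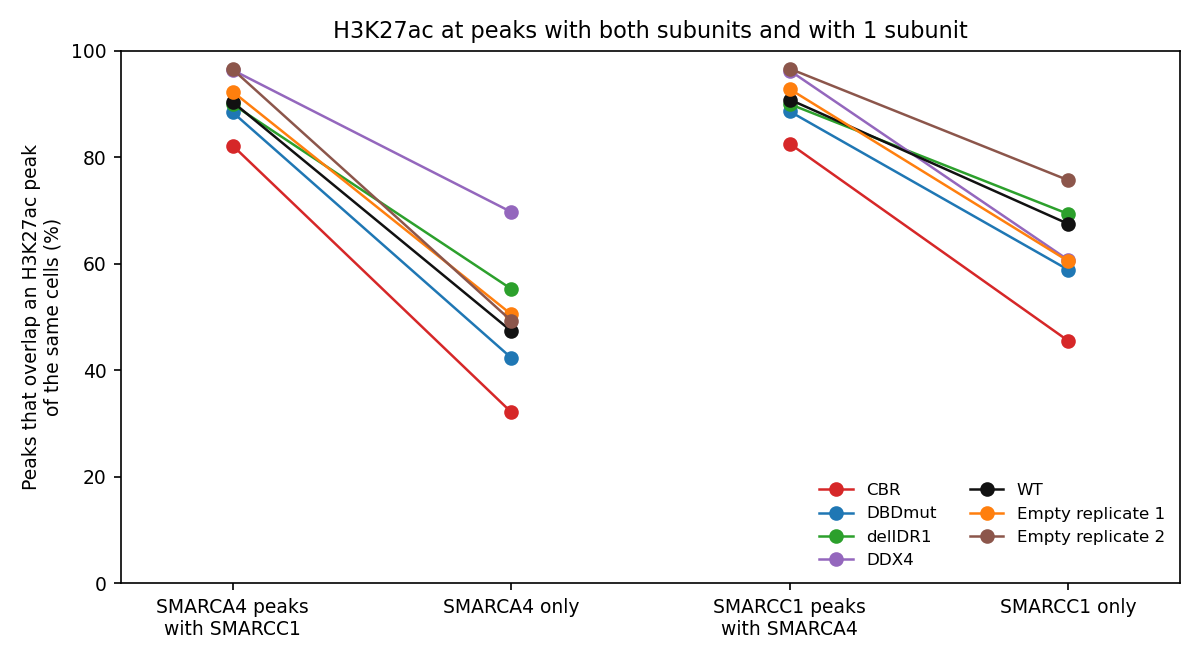
Share of peaks that overlap an H3K27ac peak of the same cells (vertical axis, percent) for 4 classes of peaks (horizontal axis), with a point per pair and a line joining the 2 classes of 1 list. In all 7 pairs both lists are higher with both subunits than with 1: SMARCA4 peaks with SMARCC1 are at 82.2% and SMARCA4-only peaks at 32.1% in CBR, and at 96.4% and 69.7% in DDX4.

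The calls after adjustment depended on which pair was left out. With 6 pairs the smallest exact p is 0.0312, which the differences in list length and share reached without CBR and missed, at p = 0.0625, when any other pair was left out. The H3K27ac differences within a list had exact p = 0.0312 whichever pair was left out, positive in 6 of 6 pairs. Their adjusted p moved only with the p of the other tests. Without DBDmut, delIDR1, WT, or either Empty replicate, the adjusted p was 0.0750 for the 5 differences that had passed (list length, share with the other subunit and the 3 of H3K27ac). Without DDX4 it was 0.0750 for the first 2 and 0.0625 for the 3 of H3K27ac. Without CBR it was 0.0469, except for SMARCA4-only against SMARCC1-only peaks, where it was 0.0750. Over all of these the difference in acetylation between SMARCA4 peaks with and without SMARCC1 stayed between 39.9 and 43.8 points.

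Unacetylated SMARCA4 peaks made up much of the CBR list. They numbered 5547 in CBR, against 984 (Empty replicate 1) to 4103 (DBDmut) in the other pairs. Of these, 19.3% had SMARCC1 in CBR, and 12.6% to 35.8% did in the other pairs. Among acetylated SMARCA4 peaks 70.0% had SMARCC1 in CBR, against 62.4% in DDX4 and 74.8% to 85.4% in the other 5. Taken by acetylation, CBR was therefore not the lowest pair in either class.

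Acetylation of discordant peaks also went with strength in CBR. SMARCA4-only peaks of the strongest of the 5 classes were acetylated in 62.9% of cases and those of the weakest in 9.31%. In the other pairs the strongest class had 42.4% (WT) to 79.4% (DDX4), so CBR lay inside that range. Their weakest class had 27.5% (DBDmut) to 48.1% (delIDR1), above CBR. The fall was not seen in delIDR1, which had 47.9% in the strongest class. CBR SMARCA4 peaks of the weakest class that did have SMARCC1 were acetylated in 49.7% of cases, and in the other pairs in 79.3% to 94.4%.

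The lists of the other cells showed whether a discordant site had been seen elsewhere. Of the 6594 SMARCA4-only peaks of CBR, 3620 (54.9%) overlapped no SMARCA4 or SMARCC1 peak of any other pair, and 7.07% of these were acetylated in CBR. Another 2711 (41.1%) had SMARCC1 in at least 1 other pair, and 65.7% of these were acetylated. The remaining 263 (3.99%) met SMARCA4 but not SMARCC1 elsewhere. The CBR sites seen nowhere else and those with SMARCC1 elsewhere thus differed widely in acetylation.

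Peaks found in 1 library were common in other pairs too. Their share of SMARCA4-only peaks was 46.0% in DBDmut, 21.8% in delIDR1, 26.1% in DDX4, 56.2% in WT, and 35.7% and 59.9% in the Empty replicates. Acetylation of such peaks was 18.9% to 43.1% in these pairs, above the 7.07% of CBR. By contrast, 95.1% of CBR SMARCA4 peaks with SMARCC1 had SMARCC1 in another pair as well, and 80.9% (WT) to 99.5% (DDX4) did in the other pairs.

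**Figure D4:**
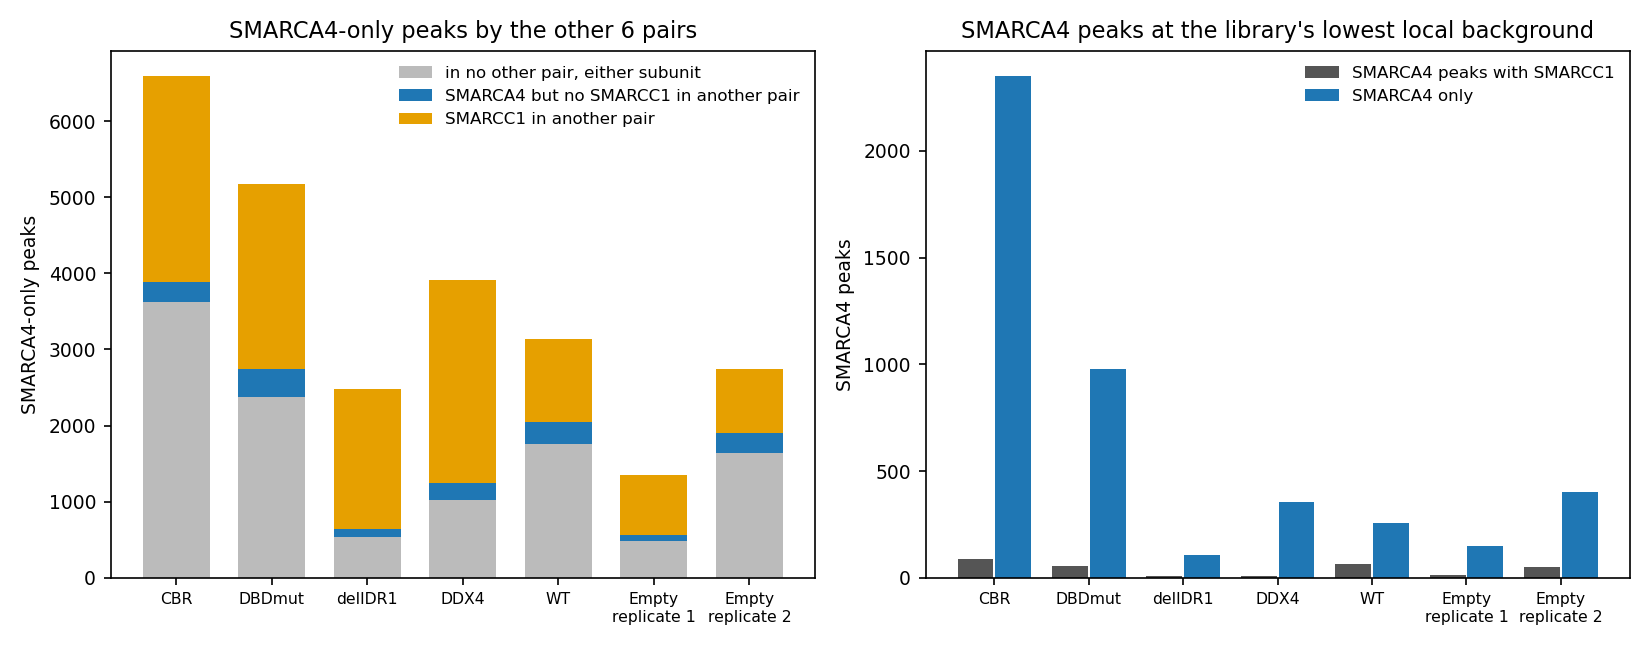
On the left, the number of SMARCA4-only peaks per pair (vertical axis), split by what the other 6 pairs had at the same site; on the right, the number of SMARCA4 peaks at the library's lowest local background, for peaks with SMARCC1 and SMARCA4-only peaks. CBR has the most in each panel, with 3620 SMARCA4-only peaks seen in no other pair and 2351 at the lowest background.

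Every SMARCA4 list was also set against the SMARCC1 lists of the other cells. CBR SMARCA4 peaks met WT SMARCC1 peaks in 53.6% of cases and their own SMARCC1 list in 47.7%, which ranked 4th of the 7 lists. With lists of equal length their own SMARCC1 list ranked first, at 59.6%. The own list then also ranked first for DBDmut (67.3%), WT (63.3%) and Empty replicate 2 (64.1%). For delIDR1 it ranked second after DBDmut, for Empty replicate 1 second after Empty replicate 2, and for DDX4 3rd.

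The Empty replicates gave the one view of how the share moved when the SMARCC1 list came from another replicate of the same construct. The 2 replicates also carried different stamps, and their SMARCA4 libraries had estimated depths of 1.23 and 1.95 fragments per kb. SMARCA4 peaks of Empty replicate 1 met SMARCC1 of replicate 1 in 75.2% of cases and SMARCC1 of replicate 2 in 79.8%. SMARCA4 peaks of Empty replicate 2 met SMARCC1 of replicate 2 in 70.2% and SMARCC1 of replicate 1 in 61.9%. At equal length the first 2 values were 55.0% and 60.04% and the second 2 were 64.1% and 59.5%. The share with the own replicate minus that with the other was -4.60 and 8.31 points for replicates 1 and 2 with whole lists and -5.01 and 4.58 points at equal length. How far 2 replicates of the other constructs would differ is not known.

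**Figure D5:**
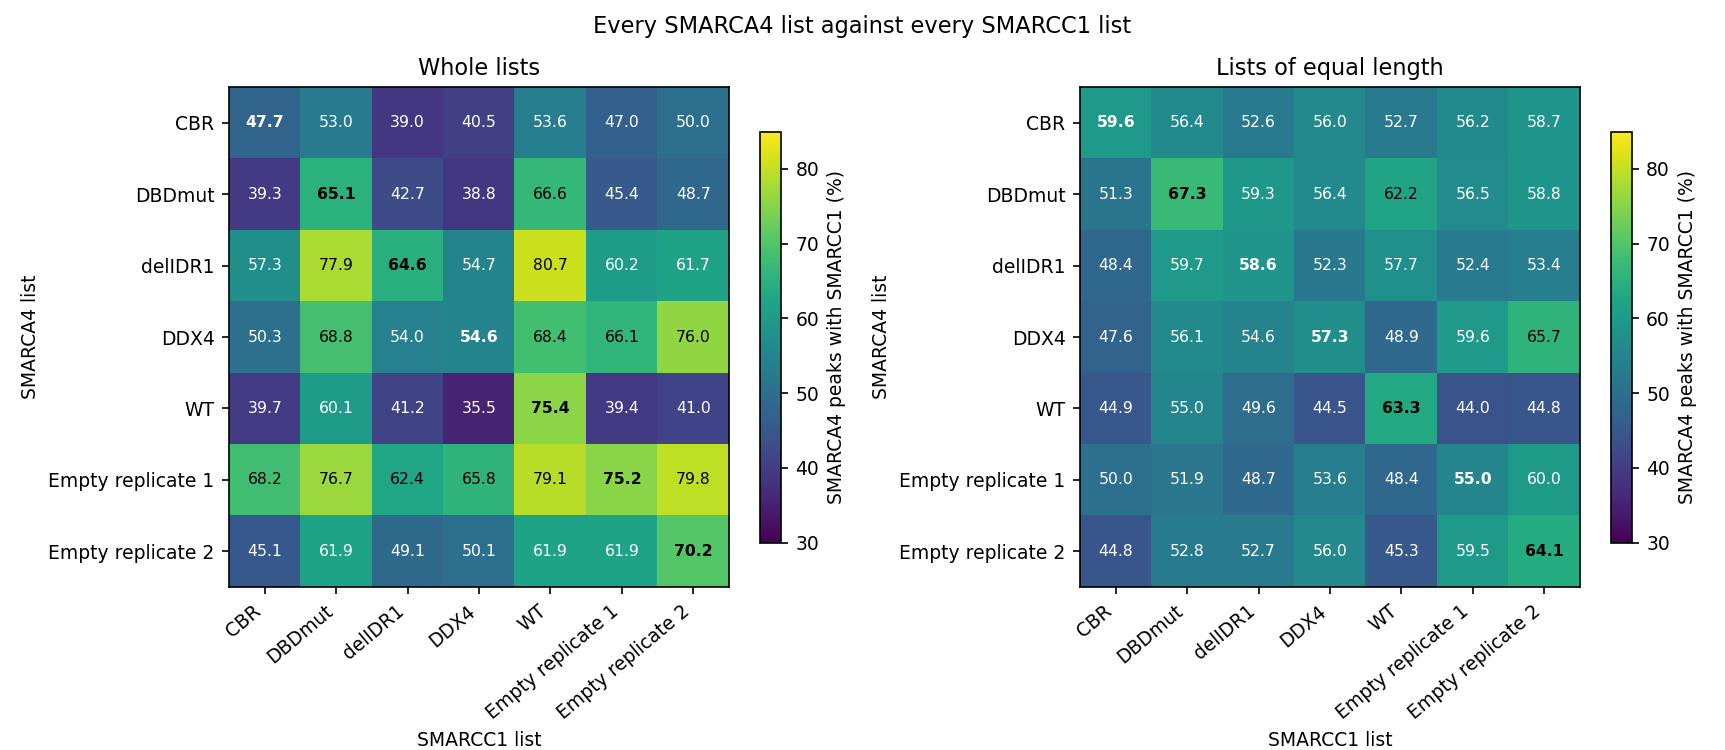
Share of SMARCA4 peaks (rows, 1 per SMARCA4 list) that overlap a SMARCC1 peak (columns, 1 per SMARCC1 list), in percent, with whole lists on the left and lists of 5453 peaks on the right; bold values are lists of the same pair. With lists of equal length the CBR value, 59.6%, is the highest of its row.

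The sites with both subunits in WT were then followed through the other pairs. Of these 9585 sites, 39.1% had both subunits in CBR, 7.32% SMARCA4 alone, 9.29% SMARCC1 alone and 44.3% neither. Both were found at 60.1% in DBDmut, 36.3% in delIDR1, 33.8% in DDX4, and 31.3% and 37.2% in the Empty replicates. Where 1 subunit was present, it was SMARCA4 in 44.1% of cases in CBR, 31.8% in DBDmut, 33.8% in delIDR1, 37.8% in DDX4, and 11.01% and 10.4% in the Empty replicates. SMARCC1 was the more frequent single subunit in each of these pairs, CBR included. These shares were taken with whole lists. The SMARCA4 list held 14849 peaks in DBDmut, 12616 in CBR, and 5453 to 9210 in delIDR1, DDX4 and the Empty replicates. Only in CBR was it longer than the SMARCC1 list. The part of list length in these shares was not tested.

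Another set held the 3178 sites where each Empty replicate had both subunits. The state with neither subunit was rarer there than at the WT sites in CBR, DBDmut, delIDR1 and DDX4. In CBR it made up 6.07%, against 44.3% at the WT sites. The Empty set asked for both subunits in 2 pairs and the WT set in 1. Sites called in 2 replicates are a stricter choice, so the shares of these sets do not compare directly. CBR had both at 78.4%, SMARCA4 alone at 8.65%, SMARCC1 alone at 6.89% and neither at 6.07%. DDX4 had 82.1%, 9.25%, 6.33% and 2.33%, so that in CBR and DDX4 SMARCA4 was the more frequent single subunit. In DBDmut it was 90.0%, 1.76%, 6.26% and 1.98%, in delIDR1 66.7%, 6.20%, 17.6% and 9.47%, and in WT 79.4%, 0.850%, 17.7% and 2.14%. SMARCC1 was the more frequent one in these 3. Whole lists were used here too, and the part of list length was not tested.

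Sites are given by hg19 position, and no gene annotation of that build was used here. The CBR sites with the smallest summed rank in both lists were chr5:10022-11775, chr12:133841523-133841891, chr1:121484062-121485424, chr13:110076478-110076689 and chr12:95186-95736. The authors' folds over the local background ran from 16.6 to 55.6 for SMARCA4 and from 17.4 to 57.8 for SMARCC1. All 5 had both subunits in 7 of 7 pairs. Peaks in artefact-prone regions were not removed, and whether these 5 lie in such regions was not checked. By position, chr5:10022-11775 and chr12:95186-95736 lie near the start of their chromosomes. The 5 are therefore given as the top calls of the lists, not as examples of sites of the complex.

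The strongest CBR SMARCA4-only peaks ranked from 54 to 110 in their list. The first, chr8:144286461-144287500, had a fold of 26.2, no H3K27ac in CBR, SMARCA4 in 5 pairs and SMARCC1 in 3. The next, chr10:35310595-35310709 (fold 30.5), had SMARCA4 in 4 pairs and SMARCC1 in Empty replicate 2 alone. At chr18:45379652-45379754 (fold 29.1) SMARCA4 was called in CBR alone and SMARCC1 in DDX4 alone. At chr8:146147027-146147308 (fold 23.3) and chr4:76807185-76807286 (fold 25.5) SMARCA4 was called in 7 of 7 pairs and SMARCC1 in Empty replicate 2 alone. None of the 5 had H3K27ac in CBR, and 4 of them had SMARCA4 peaks in other pairs.

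The strongest CBR SMARCC1-only peaks ranked from 83 to 143 in theirs. At chr11:16581711-16582196 (fold 20.3) SMARCC1 was called in 7 pairs and SMARCA4 in WT alone. At chr10:94270196-94270739 (fold 17.0) and chr2:213056008-213056531 (fold 21.9) SMARCC1 was called in 6 and 7 pairs and SMARCA4 in none. At chr11:51579529-51579662 (fold 10.98) SMARCC1 was called in 5 pairs and SMARCA4 in 2, and at chr16:33887637-33887923 (fold 23.1) each was called in 5. None of these 5 sites had H3K27ac in any pair.

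The strongest discordant site of each other pair was read in the same way. For SMARCA4 alone it was chr4:76807184-76807321 in DBDmut (rank 48, fold 35.5), which is also among the 5 of CBR. It was chr8:70602314-70602523 in delIDR1 (rank 26), chr16:33963721-33964159 in DDX4 (rank 30) and chr2:149639330-149639421 in WT (rank 21, fold 53.4). In the Empty replicates it was chr14:32954018-32954324 (rank 40) and chr19:36066510-36066741 (rank 31). For SMARCC1 alone the top site was chr14:32954035-32954324 in delIDR1 (rank 51), so this chromosome 14 site was called for SMARCC1 but not SMARCA4 in delIDR1, and for SMARCA4 but not SMARCC1 in Empty replicate 1.

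Merging all 14 lists gave 53009 regions, in which repeated discordance could be counted. Both subunits were present in all 7 pairs at 1686 regions, and 92.8% of these had H3K27ac in all 7, against 20.4% of all merged regions. The 1686 were also wider, with a median of 616.5 bp against 215 bp, and the part of width was not tested. At 12074 regions SMARCA4 was found in at least 1 pair and SMARCC1 in none, and 11446 of these were called in 1 pair alone. At 20730 regions SMARCC1 was found and SMARCA4 was not, 16341 of them in 1 pair alone. Most regions with a single subunit were thus calls of 1 library.

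Discordance repeated in 4 or more pairs was found at 34 regions for SMARCA4 and at 733 for SMARCC1. With lists of equal length the counts were 116 and 175, a smaller gap. H3K27ac in at least 1 pair was found at 64.7% of the 34 and 81.3% of the 733, against 64.9% of all merged regions, so the 34 stood at the background. Their median widths were 386 and 341 bp, against 215 bp for all merged regions, and width was not accounted for. A single region had SMARCA4 in all 7 pairs and SMARCC1 in none, chr9:134390991-134391757, with SMARCA4 folds from 5.63 to 12.8 and no H3K27ac. The 4 with SMARCA4 in 6 pairs were chr2:133038131-133038721, chr7:68527376-68527684, chr4:1872484-1872950 and chr9:136933100-136933546, of which the first and the third lacked SMARCA4 in different pairs, CBR and delIDR1. In the other direction there were 27 such regions. Those of highest rank were chr7:140711867-140712119 and chr2:213055958-213056547, without H3K27ac, chr12:49147254-49147709, with it in 3 pairs, and chr1:46872111-46872372 and chr14:54955690-54956113, with it in all 7. Their SMARCC1 folds ran from 7.57 to 23.01.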

How the data were processed

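CUT&Tag of SMARCA4, SMARCC1 and H3K27ac in AN3CA cells was read from the peak lists of 21 libraries, 1 list per library, grouped by construct and antibody from the titles. A commercial protocol was followed, per the labels' protocols. The submitters' processing notes name bcl2fastq, versionless, and hg19. Neither the aligner nor the peak caller, duplicate handling or control library is given in the sources used here.

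The deposited lists have 10 columns and include a score, a fold enrichment over local background (a ratio), a -log10 p-value, a -log10 q-value and a summit position per peak. The lowest deposited -log10 q was just above 2 in every list, the value of a q of 0.01. These values are the authors', and were used to describe, rank or filter peaks within a list. The pileup at each summit was recovered from fold and -log10 p as a Poisson tail, to within 0.001, for at least 99.9% of peaks. The lowest background (within 5%) over the shortest peak's length gave fragments per kb, an estimate of depth; read totals are unknown here.

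Pairs were tested by two-sided exact sign-flip permutation, with Benjamini-Hochberg adjustment over 6 tests. Pairing is by the cells: SMARCA4 and SMARCC1 of the same construct and, for Empty, the same replicate number. Shares carry Wilson 95% intervals for counting error only, as neighbouring peaks and PCR copies are not independent. CBR was set beside the other pairs with no test of its own, and Dixon's criterion was applied to all 7 pairs alike. Named sites were, per pair, the top peak by -log10 q with SMARCA4 alone and with SMARCC1 alone and the smallest summed rank with both; for CBR, 5 of each; and the 5 merged regions with 1 subunit in most pairs and the other in none. The top sites with both subunits of the other pairs, and the top SMARCC1-only sites of pairs other than CBR and delIDR1, are not printed. Members, tests and settings were chosen with earlier results of these data known. No genome or annotation of hg19 was used here, so no sequence or gene is given. The HA library of DDX4 was left out. Code was tested on simulated data. Python 3.11.15, numpy 2.4.6, pandas 2.3.3, scipy 1.17.1 and matplotlib 3.10.9 were used.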

Additional observations from a re-analysis of the deposited data

How the results depend on the processing

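Other settings were summits within 250 bp, an overlap of 50% of the shorter peak, a gap of up to 1 kb, a -log10 q of at least 5, all subunit lists or all H3K27ac lists at equal length, deciles of strength, all sequences, each pair left out, Empty replicates averaged, and only the 5 pairs with the stamp of WT. Exact two-sided tests with 6 or 5 pairs cannot go below p = 0.0312 or 0.0625. With any pair other than CBR left out, list length and share had p = 0.0625 in the exact test, with CBR of opposite sign still among the 6; without CBR they had p = 0.0312 and adjusted p = 0.0469.

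The 5 differences that passed kept their direction under every setting tried, and the width difference turned positive with a -log10 q of at least 5 (0.286 bp) and without WT (7.75 bp). With 1 pair or Empty replicate left out, the ranges were -5360 to -3440 peaks, -25.2 to 7.75 bp of width and 16.1 to 24.1 points of share. For H3K27ac they were 39.9 to 43.8, 27.1 to 29.8 and -16.7 to -10.8 points. With H3K27ac lists at equal length they were 43.4, 30.5 and -13.0 points, all still called. Averaging the Empty replicates gave -4064 peaks, 17.6 points, and 40.8, 28.8 and -12.2 points for H3K27ac (exact test, adjusted p = 0.0750). The 5 pairs of the WT stamp gave -4899 peaks, 22.1 points, and 43.1, 28.6 and -14.8 points (exact test, adjusted p = 0.0938 to 0.125).

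With all lists at equal length, the share difference was 0.288 points and SMARCA4-only minus SMARCC1-only -3.10 points. The difference between single-subunit peaks was -5.61 points with a -log10 q of at least 5, -11.5 with 50% overlap and -10.9 with summits, and the share difference 19.4 points with gaps (exact test, adjusted p = 0.0562). The cause was not tested. With no replicate block, that is with the pairing ignored, permutation gave adjusted p = 0.0783 for -4469 peaks, 0.852 for width, 0.00699 for share, 0.00175 for both H3K27ac differences within a list and 0.0629 for -13.0 points between SMARCA4-only and SMARCC1-only peaks. The CBR share of 47.7% moved to 46.0% (50% overlap), 51.2% (gaps), 64.3% (-log10 q of at least 5), 59.6% (equal length) and, in a setting chosen after seeing the data, 58.3% (without peaks at the lowest background). The repeated single-subunit regions, 34 and 733, were 36 to 38 and 748 to 750 with all sequences or the stricter q, settings also chosen after seeing the data, as was their equal-length setting.

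Peak lists hold called sites only, so a site below detection counts as one without the subunit. The median pileup of SMARCA4-only peaks was 5 fragments in CBR and DBDmut, so these calls rest on few fragments.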

Other observations

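Dixon's criterion for 7 values was applied to 8 measures per pair. These were the shares with the other subunit, the acetylated shares of each class, the covered bases in common and the summit distance. In none did a pair stand apart from the other 6. The largest gap was 0.478 of the range, for the summit distance of Empty replicate 2. The share of SMARCA4 peaks at the lowest local background was not among the measures. It was 19.3% in CBR and 1.63% to 6.94% in the other pairs. Peaks of both subunits lay more often on chromosome 19 than SMARCA4-only peaks in every pair: in CBR 7.65% against 4.28%, in DBDmut 5.70% against 4.31%, in delIDR1 5.77% against 4.95%, in DDX4 8.14% against 7.57%, in WT 5.30% against 3.25%, and in the Empty replicates 8.80% against 4.66% and 7.53% against 5.95%. This was not tested. Peaks with both subunits were also wider than SMARCA4-only peaks, with medians of 183 and 123 bp in CBR, 344 and 238 bp in DDX4, and 170 and 119 bp in WT.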
